A study of Mus musculus with 3 samples.

Results

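The clustered protocadherin locus was taken as chromosome 18, 37085001 to 38005000 (mm9), which holds the alpha, beta and gamma protocadherin genes and makes up 920 bins of 1 kb. The genome as a whole had 2285014 bins with a read in any library. The 920 bins were chosen by position alone, and each was read in 3 chromatin immunoprecipitation (ChIP-seq) libraries, 1 per antibody. One antibody, raised in the submitting laboratory, recognises histone H3 that is dimethylated symmetrically at arginine 2 (H3R2me2s). A second, also made there, was raised against that mark together with trimethylation of lysine 4 (H3R2me2sK4me3, here the joint mark), and the third was a commercial antibody against H3K4me3. All 3 libraries came from RAG2-/- pro-B cells transformed with Abelson virus, of a strain labelled C57BL/7, and no treatment is named in the labels. Pro-B cells are an early stage of B lymphocyte development, RAG2 is needed to cut and join the gene segments of antigen receptors, and the Abelson virus keeps such cells dividing in culture. Neither the genotype nor the cell type was checked in the reads, and the labels do not say whether the line is 1 clone.

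Clustered protocadherins are cell-surface adhesion proteins, best known from neurons, where each cell uses its own small choice of them as an identity tag. In the alpha and gamma groups many first exons, each with its own promoter, are spliced to shared constant exons, while beta genes have single exons. The choice of promoter is known to go with CTCF binding and loss of DNA methylation at that promoter, and the locus is mostly silent outside the nervous system. H3K4me3 marks the promoters of active or poised genes, and H3R2me2s is known to lie at such promoters too, where the adaptor protein WDR5 can bind it. A gene table for GRCm38 was used for names and order only. It lists 14 alpha genes, Pcdha1 to Pcdhac2, then 22 beta genes, Pcdhb1 to Pcdhb22, and then 22 gamma genes, Pcdhga1 to Pcdhgc5. Between the beta and gamma groups it lists Slc25a2, which encodes a mitochondrial ornithine carrier, and Taf7, which encodes a subunit of the general transcription factor TFIID, with the pseudogene Gm8242. No mm9 annotation was used, so no bin below is assigned to a gene.

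Depth was 6923765 reads for H3R2me2s, 7128852 for the joint mark and 13898471 for H3K4me3. Background was the mean of bins lying over 5 kb from every enriched bin, at 2.35, 1.86 and 2.98 reads per bin in the same order. A level is the number of reads per bin divided by that background, so that 1 is the genome-wide background of the same library. Enriched bins had at least 15, 16 and 25 reads, which correspond to levels of 6.37, 8.60 and 8.39. Brackets give exact 95% Poisson intervals for levels and exact 95% binomial intervals for ratios. They cover counting error only, since each antibody had 1 library, no input library was used, and amplified reads with no molecular barcode may stem from the same molecule. No p-value was computed between antibodies, and no difference between them has a replicate check.

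Across the whole locus there were 2057 reads of H3R2me2s, 2267 of the joint mark and 5226 of H3K4me3. The mean level was 0.9496 (0.909 to 0.992) for H3R2me2s, 1.32 (1.27 to 1.38) for the joint mark and 1.91 (1.86 to 1.96) for H3K4me3. H3R2me2s was lowest of the 3 and H3K4me3 highest. Whether H3R2me2s lay below or above background depended on the bins counted and on the background used. Background uses bins with a read, and the locus has 123 bins without one. The H3R2me2s level was 1.10 (1.05 to 1.15) over locus bins with a read. Against a background taken over 20 kb from enriched bins it was 1.05 (1.01 to 1.10) over all 920 bins, with the empty ones included. Scaled to background, H3R2me2s stood at 0.498 of H3K4me3 (0.473 to 0.524) and the joint mark at 0.694 of H3K4me3 (0.661 to 0.729). The libraries share no calibration, so such ratios do not compare amounts of the marks. The 920 kb before the locus had levels of 1.89, 2.94 and 3.77 for H3R2me2s, the joint mark and H3K4me3, and the 920 kb after it had 1.93, 2.66 and 3.52. The locus was lower than either flank in every library. It lay near the rest of chromosome 18, which had 1.12, 1.42 and 1.65. In both flanks and in the rest of the chromosome H3R2me2s was also lowest and H3K4me3 highest, so that order was not particular to the locus. Of 2705 windows of the same length tiled over the genome, 45.4% had less H3R2me2s, 52.8% less of the joint mark and 62.3% less H3K4me3, so the mean over the locus was near the middle of the genome in each library.

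That mean joins unlike stretches. The first 6 of 10 equal parts (92 kb each, called segments), 552 kb in all, held no enriched bin in any library. The last 4 segments held all 21 bins that were enriched in any library. These are 2.28% of the 920 bins, beside 2.55% of the bins with a read genome-wide. Bins without a read are counted in the first share only, which lowers it. In the first 6 segments the level was 0.593 (0.552 to 0.637) for H3R2me2s, 0.673 (0.624 to 0.726) for the joint mark and 0.693 (0.654 to 0.735) for H3K4me3, so all 3 libraries were below genome background. The segments among them ranged from 0.512 to 0.766 for H3R2me2s, from 0.625 to 0.707 for the joint mark and from 0.599 to 0.770 for H3K4me3. The median of 26764 windows of 92 kb over the genome was itself below 1, at 0.868, 0.894 and 0.881. By segment, 12.1% to 43.0% of those windows had less H3R2me2s, 21.6% to 32.5% less of the joint mark and 14.9% to 38.0% less H3K4me3. These segments were thus in the lower part of the genome but not extreme. Reads per bin reached at most 7, 9 and 24. The bin with 24 H3K4me3 reads, at 37249001 to 37250000, was 1 read short of the limit, lay 388 kb from the nearest enriched bin, and held 2 reads of H3R2me2s and 6 of the joint mark. The last 4 segments had levels of 1.48 (1.40 to 1.57), 2.30 (2.19 to 2.42) and 3.73 (3.61 to 3.84).

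**Figure D1:**
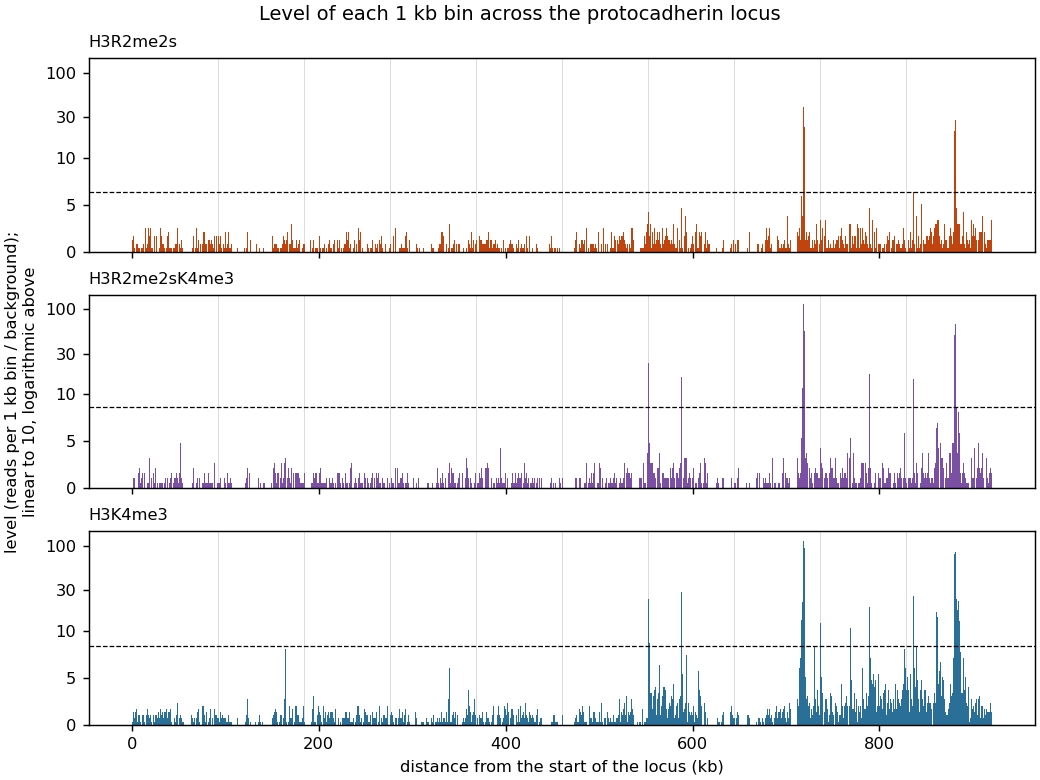
Level of each 1 kb bin (reads over background; linear to 10 and logarithmic above) against distance from the start of the locus in kb, 1 panel per library. Dashed lines mark the calling limits at 6.37, 8.60 and 8.39, and grey lines divide the locus into segments. No bin reaches a limit in the first 552 kb, and the highest bins lie in 2 places further on.

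Some of the shortfall in the first 6 segments goes with bins that no library covered. Of the 920 bins, 123 (13.4%) had no read in any library, beside 7.47% over the rest of the chromosome, and the longest empty run was 12 kb at 37546001 to 37558000. There were 85 empty bins in the first 6 segments and 38 in the last 4. Over bins with a read and more than 5 kb from any enriched bin, the first 6 segments had levels of 0.691 for H3R2me2s, 0.788 for the joint mark and 0.824 for H3K4me3. These were still under 1, the level of background bins, which were counted in the same way. Genome-wide, bins with a read beyond 20 kb from an enriched bin were themselves at 0.902, 0.911 and 0.899. How the aligner treated repeated sequence is not given in the sources used here, and the part of repeated sequence in the empty bins was not tested.

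Enriched bins numbered 5 for H3R2me2s, 10 for the joint mark and 21 for H3K4me3, which are 0.543%, 1.09% and 2.28% of the 920 bins. Genome-wide 1.23%, 1.45% and 2.45% of the bins with a read were enriched. The 920 bins of the locus include 123 without a read, which lowers its shares beside these. Counted over all 920 bins, the locus was below the genome share for both arginine antibodies and close to it for H3K4me3. Of 2705 windows of the same length, 45.1% had fewer enriched bins for H3R2me2s, 57.2% for the joint mark and 63.0% for H3K4me3. The median window had 6, 7 and 12, beside 5, 10 and 21 in the locus. The locus was thus below the median window for H3R2me2s only, and the place of the joint mark depended on the comparison. The enriched bins were nested. All 5 H3R2me2s bins were enriched in all 3 libraries, 5 more bins were enriched for the joint mark and H3K4me3, and 11 for H3K4me3 alone. None was enriched for H3R2me2s or the joint mark without H3K4me3. Genome-wide, 58280 bins were enriched in any library and 56039 for H3K4me3, so few lacked it there too. Such nesting is thus not particular to the locus, and the H3K4me3 library was also the deepest. Neighbouring enriched bins, at most 1 kb apart, formed 11 regions, numbered in order along the chromosome, over a span of 334 kb. Together they took up 2.28% of the bins and held 19.9% of the H3R2me2s reads of the locus, 35.9% of those of the joint mark and 37.7% of those of H3K4me3. Both regions with most reads (regions 3 and 11) held 15.4%, 27.4% and 27.7% of the reads between them.

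Region 3, at 37801001 to 37805000, was the strongest. It had 171 reads of H3R2me2s, 354 of the joint mark and 729 of H3K4me3, at levels of 18.2 (15.5 to 21.1), 47.5 (42.7 to 52.8) and 61.2 (56.8 to 65.8). In its highest bin, at 37803001 to 37804000, the level was 39.9 for H3R2me2s, 117 for the joint mark and 115 for H3K4me3, so that the joint mark there stood as far above its own background as H3K4me3 did. Of 19747 regions called in the same way over the genome, it ranked 1703rd by reads for H3R2me2s, 2017th for the joint mark and 2392nd for H3K4me3. Counting reads that repeat a position and strand once lowered its H3K4me3 level to 51.5.

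Region 11, at 37965001 to 37971000, was wider, with 146 reads of H3R2me2s, 266 of the joint mark and 719 of H3K4me3. Its levels were 10.3 (8.73 to 12.2), 23.8 (21.04 to 26.9) and 40.2 (37.3 to 43.3). All 6 of its bins were enriched for H3K4me3, 3 for the joint mark and 2 for H3R2me2s. In the first 2 bins the H3R2me2s level was 20.8 and 27.6, the joint mark 49.4 and 67.2, and H3K4me3 81.2 and 83.9. In the last 3 bins H3K4me3 was at 17.5, 22.2 and 13.1 while H3R2me2s was at 2.97 in each and the joint mark at 3.76, 8.06 and 5.91. H3K4me3 thus reached past the bins called for the arginine antibodies on the side away from the locus start. From 1 to 4 kb beyond the centre on that side the H3K4me3 level was 27.5 (24.2 to 31.2), beside 12.7 (9.93 to 16.0) for the joint mark and 4.81 (3.33 to 6.73) for H3R2me2s. From 1 to 4 kb on the other side these were 4.14, 2.51 and 1.42. The centre was the 100 bp bin with most H3K4me3 reads, and the highest such bin of the joint mark began further on, at 37966201. The far window took in 12, 13 and 12 joint-mark reads in the bins at 1000, 1100 and 1200 bp, so its level depends on the centre chosen. Part of the H3K4me3 level on the far side was a separate cluster of reads 3000 to 4000 bp from the centre. It had 95 reads, beside 16 of the joint mark and 6 of H3R2me2s.

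Inside both strong regions the reads of all 3 libraries fell into 2 lobes with a dip between them. Positions were counted from the start of the 100 bp bin with most H3K4me3 reads, at 37803501 in region 3 and 37965601 in region 11. In region 3 the dip from 300 to 500 bp held 2 reads of H3R2me2s, 5 of the joint mark and 7 of H3K4me3. The lobe from -500 to 300 bp held 92, 213 and 336 reads, and the lobe from 500 to 1000 bp held 48, 99 and 251. Per 100 bp, H3K4me3 thus went from 42.0 to 3.50 and back to 50.2. In region 11 the dip held 1, 3 and 6 reads, the lobe before it 47, 87 and 228, and the lobe after it 52, 87 and 179. The same windows held the dip in the 3 libraries, and its depth depended on how far reads were moved. For H3K4me3 it held 22 reads in region 3 with reads not moved and 30 with reads moved 150 bp, and in region 11 it held 14 and 19. The dip windows were chosen after the profiles were seen, and the ease of mapping there was not tested.

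**Figure D2:**
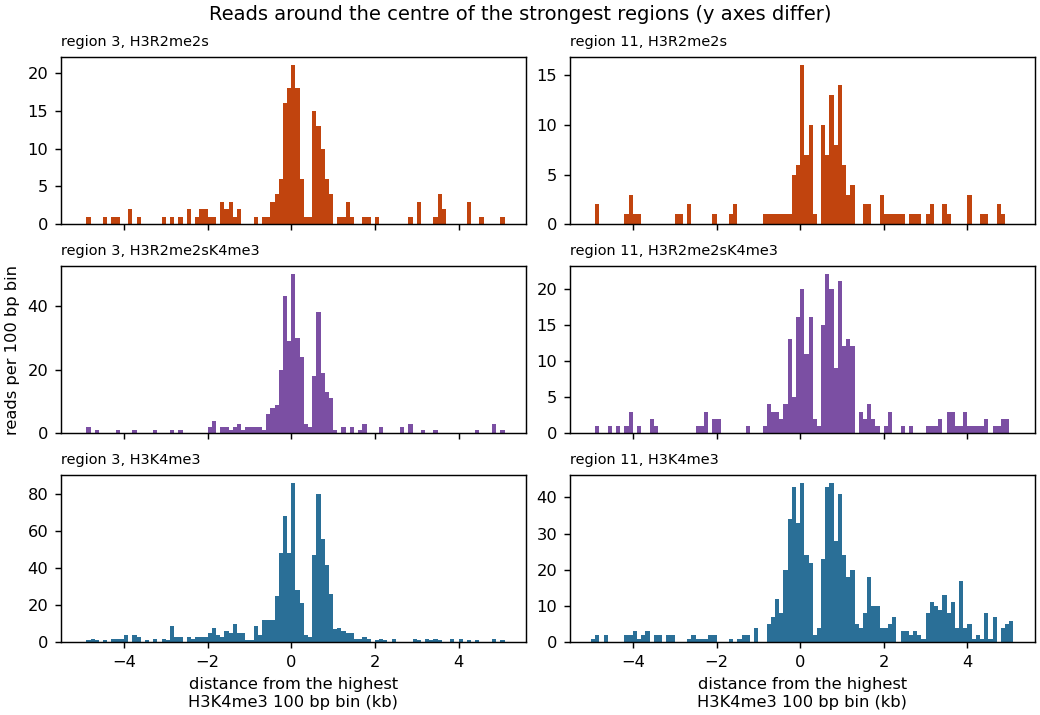
Reads per 100 bp bin up to 5 kb on either side of the 100 bp bin with most H3K4me3 reads, in region 3 (left) and region 11 (right), 1 row per library with its own y axis. Each library shows 2 lobes with a dip at 300 to 500 bp, and region 11 has a further cluster of H3K4me3 reads at 3000 to 4000 bp.

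The other 9 regions were weak and narrow, 1 or 2 kb wide, with 25 to 97 H3K4me3 reads each. Region 8, at 37921001 to 37922000, was the only weak region enriched in all 3 libraries, with 15 reads of H3R2me2s, exactly at the limit, 28 of the joint mark and 76 of H3K4me3. Its levels were 6.37 (3.57 to 10.5), 15.0 (9.996 to 21.7) and 25.5 (20.1 to 31.9). With repeat reads counted once there were 4 enriched H3R2me2s bins in the locus in place of 5.

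Regions 1, 2 and 7 were enriched for the joint mark and H3K4me3 but not for H3R2me2s. Region 1, at 37637001 to 37639000, is the first enriched region of the locus and had 14 reads of H3R2me2s, 52 of the joint mark and 97 of H3K4me3. The levels were 2.97 (1.63 to 4.99), 14.0 (10.4 to 18.3) and 16.3 (13.2 to 19.9). H3R2me2s stood at 0.213 of the joint mark (0.109 to 0.390) after scaling to background, and 1.28% of 19721 regions over the genome had a lower ratio. Region 2, at 37673001 to 37674000, had 11, 30 and 84 reads and a ratio of 0.290 (0.131 to 0.595). Region 7, at 37874001 to 37875000, had 11, 32 and 57 reads and a ratio of 0.272 (0.124 to 0.553). The genome median of this ratio was 0.439, which lay above the interval of region 1 and inside those of regions 2 and 7. These 3 regions were grouped by a call for the joint mark without a call for H3R2me2s. A ratio below the median of all regions can follow from that grouping and is no evidence of imbalance. In each of these regions the H3R2me2s count was below the limit of 15 reads but above its background, so a missing call does not show absence of the mark.

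Regions 4, 5, 6, 9 and 10 were enriched for H3K4me3 alone. Region 10, at 37946001 to 37948000, was the strongest of them, with 15 reads of H3R2me2s over 2 bins, 25 of the joint mark and 92 of H3K4me3. Its levels were 3.19 (1.78 to 5.25), 6.72 (4.35 to 9.91) and 15.4 (12.4 to 18.9). Region 5, at 37821001 to 37822000, had 8 reads in both arginine libraries and 37 of H3K4me3, and region 6, at 37854001 to 37855000, had 7, 10 and 32. Region 4, at 37815001 to 37816000, had 3, 3 and 25 reads, and region 9, at 37924001 to 37925000, had 9, 5 and 25, so both stood exactly at the H3K4me3 limit. In region 4 both arginine levels, 1.27 (0.263 to 3.72) and 1.61 (0.332 to 4.71), could not be told from background at this depth.

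**Figure D3:**
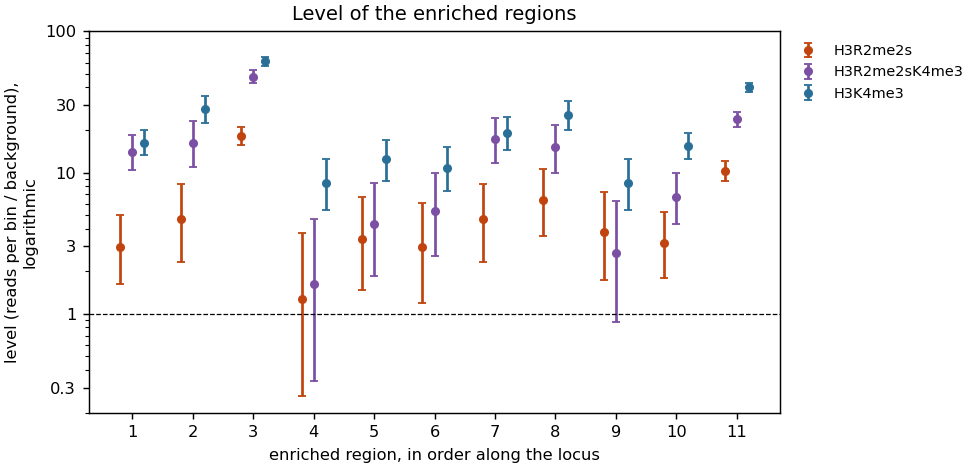
Level (reads over background, logarithmic axis) of the 11 enriched regions in order along the locus, by library. Points are 1 library each, bars are exact 95% Poisson intervals, and the dashed line is background. Regions 3 and 11 stand highest in all 3 libraries, and H3R2me2s is lowest of the 3 levels in every region except region 9.

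Set beside all regions of the genome, the ratios of the strong regions were ordinary. H3R2me2s stood at 0.297 of H3K4me3 (0.250 to 0.351) in region 3 and 0.257 (0.213 to 0.307) in region 11, beside a genome median of 0.262. The joint mark stood at 0.777 of H3K4me3 (0.682 to 0.884) in region 3 and 0.592 (0.512 to 0.682) in region 11, beside a genome median of 0.592. Region 3 was above that median and higher than 86.6% of regions. Among the weak regions the joint mark stood at 0.898 of H3K4me3 (0.564 to 1.41) in region 7 and at 0.192 (0.0371 to 0.629) in region 4, with few reads behind each.

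Between the enriched regions of the last 4 segments, H3K4me3 was on average above background while both arginine antibodies were close to it. Over bins farther than 5 kb from every enriched bin, the last 4 segments had 1248 H3K4me3 reads in 255 bins, a level of 1.64 (1.55 to 1.74). Over the 107 bins beyond 20 kb it was 0.766 (0.673 to 0.868), on the other side of background. In those 107 bins H3R2me2s was at 0.647 (0.5515 to 0.754) and the joint mark at 0.653 (0.545 to 0.775). Over the 255 bins beyond 5 kb, H3R2me2s was at 0.939 (0.863 to 1.02) and the joint mark at 1.00 (0.915 to 1.10). H3R2me2s therefore stood at 0.572 of H3K4me3 (0.517 to 0.632) and the joint mark at 0.610 of it (0.548 to 0.679). In the first 6 segments the same ratios were 0.839 (0.764 to 0.921) and 0.957 (0.869 to 1.05). In both flanks the levels of such bins were similar between libraries, at 1.25, 1.16 and 1.16 before the locus and 1.39, 1.31 and 1.39 after it. The division after segment 6 was made after the data were seen.

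The H3K4me3 excess was uneven. By segment, its level over bins more than 5 kb from an enriched bin was 1.47 (1.31 to 1.63) in segment 7, 0.616 (0.512 to 0.735) in segment 8, 2.455 (2.24 to 2.69) in segment 9 and 2.24 (2.01 to 2.497) in segment 10. Segment 9 had 468 H3K4me3 reads, 161 of H3R2me2s and 152 of the joint mark in 64 such bins. H3R2me2s was at 1.07 (0.910 to 1.25) and the joint mark at 1.28 (1.08 to 1.496) there. In segment 10 they were at 1.51 (1.30 to 1.75) and 1.55 (1.30 to 1.82), so that all 3 libraries were above background. In segment 8 they were at 0.513 each, and H3K4me3 was low with them. Only 46 of the 67 such bins of segment 8 held a read. Over those 46 bins H3R2me2s was at 0.748, the joint mark at 0.7475 and H3K4me3 at 0.898, so empty bins made up part of the low level. In segment 7, 60 of 74 such bins held a read, with H3K4me3 at 1.81 over them. All such bins of segments 9 and 10 held a read.

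**Figure D4:**
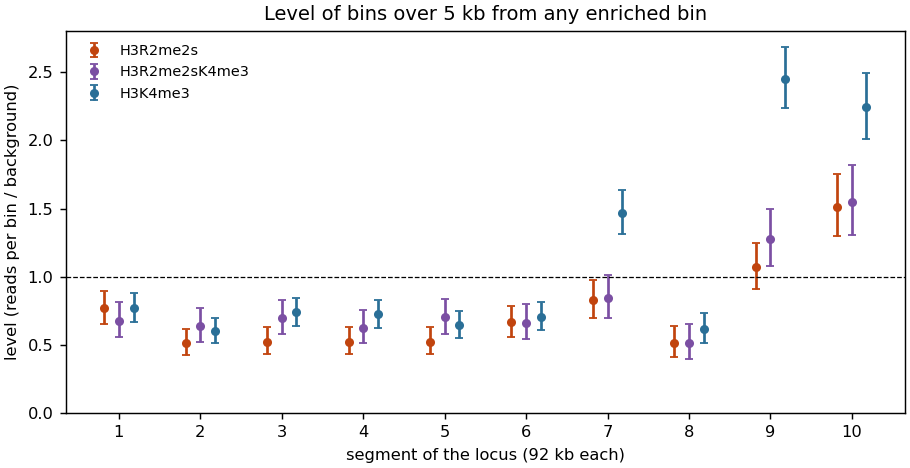
Level (reads over background) of bins farther than 5 kb from every enriched bin, in each of the 10 segments of the locus, by library. Bars are exact 95% Poisson intervals and the dashed line is background. The libraries lie closer together in segments 1 to 6 and in segment 8 than in segments 7, 9 and 10, where H3K4me3 lies above the others. In segment 3 the intervals of H3R2me2s and H3K4me3 do not overlap.

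Of 26764 windows of 92 kb tiled over the genome, 99.3% had a lower H3K4me3 level outside enriched bins than segment 9, while 63.5% had a lower H3R2me2s level and 76.3% a lower level of the joint mark. H3R2me2s stood at 0.435 of H3K4me3 in segment 9, and 15 of the 26764 windows had a lower ratio. The median window had 0.977. A high H3K4me3 level lowers this ratio by construction, and among the 185 windows with as much H3K4me3 or more the median was 0.775. Only 1 of those 185 windows had a lower ratio than segment 9. For the joint mark the ratio was 0.520, with a median of 0.781 in those 185 windows, of which 2 were lower. In segment 7 H3R2me2s stood at 0.564 of H3K4me3, and 23 of 3844 windows with as much H3K4me3 or more were lower. Segment 10, at 0.674, was less far out, with 40 of 392 windows lower.

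A long stretch with this imbalance was the 46 kb between regions 7 and 8, at 37875001 to 37921000, described here after its values were seen. It held 459 reads of H3K4me3, at a level of 3.35 (3.05 to 3.67), but 104 of H3R2me2s, at 0.960 (0.785 to 1.16), and 94 of the joint mark, at 1.10 (0.887 to 1.34). Every one of its 46 bins had a read in some library, and none was enriched. With repeat reads counted once the levels were 3.31, 0.963 and 1.11, and at equal depth 3.21, 0.936 and 1.07. The 2 kb between regions 8 and 9 had 30 reads of H3K4me3, at 5.04 (3.40 to 7.19), with 2 of H3R2me2s and 4 of the joint mark. The 17 kb between regions 10 and 11 had H3K4me3 at 3.54 (3.04 to 4.09), with H3R2me2s at 1.55 (1.19 to 1.99) and the joint mark at 2.56 (2.03 to 3.18). The 34 kb between regions 1 and 2 had 263 reads of H3K4me3, at 2.60 (2.29 to 2.93), 107 of H3R2me2s, at 1.34 (1.10 to 1.61), and 91 of the joint mark, at 1.44 (1.16 to 1.76). The 127 kb between regions 2 and 3 had H3K4me3 at 0.946 (0.851 to 1.05), H3R2me2s at 0.615 (0.530 to 0.711) and the joint mark at 0.656 (0.556 to 0.767). Only 91 of its bins held a read. Over those 91 bins H3K4me3 was at 1.32 (1.19 to 1.465), H3R2me2s at 0.859 (0.739 to 0.992) and the joint mark at 0.915 (0.777 to 1.07). H3K4me3 was then above background there too.

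H3K4me3 differed between the sides of region 1. In the 20 kb before it the H3K4me3 level was 0.621 (0.437 to 0.856), and in the 20 kb after it the level was 2.89 (2.47 to 3.35). H3R2me2s went from 0.849 (0.607 to 1.16) to 1.51 (1.18 to 1.90), and the joint mark from 0.752 (0.4998 to 1.09) to 1.48 (1.11 to 1.92). Only 15 of the 20 bins before region 1 held a read, beside all 20 after it. Over bins with a read, H3K4me3 before region 1 was at 0.828 (0.583 to 1.14), still below its interval after it. H3R2me2s was then at 1.13 (0.809 to 1.54) and the joint mark at 1.003 (0.666 to 1.45), with intervals that overlapped those after region 1.

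H3K4me3 was higher close to enriched bins, and at 3 to 20 kb it was above the genome as a whole. These values are over bins with a read, the same kind of bin as in the genome-wide figure. In the last 4 segments the H3K4me3 level of bins that were not enriched was 3.62 at 1 to 2 kb from an enriched bin, 2.97 at 3 to 5 kb, 2.59 at 6 to 10 kb, 2.18 at 11 to 20 kb and 1.05 beyond 20 kb. Genome-wide it was 3.74, 2.18, 1.71, 1.45 and 0.899 at the same distances. From 3 kb outward the locus thus had more H3K4me3 than the genome at each distance. H3R2me2s in the locus was lower than genome-wide from 6 to 20 kb, with 1.23 against 1.62 at 6 to 10 kb and 1.17 against 1.48 at 11 to 20 kb. Next to enriched bins, at 1 to 2 kb, H3R2me2s was at 1.29 (1.07 to 1.53) against 2.19 genome-wide, and the joint mark at 1.71 (1.42 to 2.03) against 2.46. The bins beyond 20 kb numbered 107 in all, of which 78 held a read. The 6 of them in segment 9 had H3K4me3 at 2.07 (1.46 to 2.85), H3R2me2s at 0.991 (0.542 to 1.66) and the joint mark at 0.985 (0.492 to 1.76), so distance and place within the locus cannot be told apart.

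**Figure D5:**
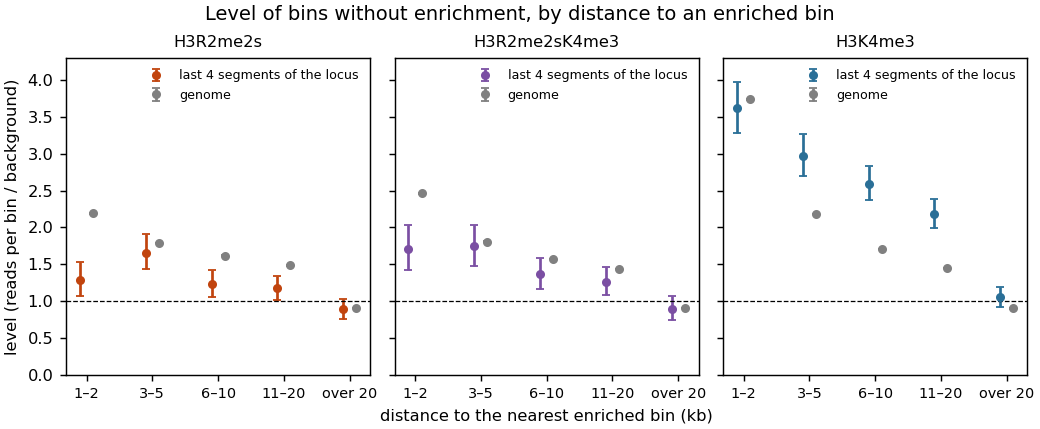
Level (reads over background) of bins that are not enriched, by distance in kb to the nearest enriched bin, for the last 4 segments of the locus (colour) and the genome (grey), over bins with a read, 1 panel per library. Bars are exact 95% Poisson intervals. From 3 to 20 kb H3K4me3 lies above the genome, and H3R2me2s lies below it at 1 to 2 kb and at 6 to 20 kb.

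Some single bins fell short of a call. Each was picked as 1 of the 5 uncalled bins with most reads in a given library. Lower counts in the other libraries can follow from that choice and are no evidence of imbalance. At 37801001 to 37802000, inside region 3, there were 14 H3R2me2s reads, 1 under the limit, with 10 of the joint mark and 40 of H3K4me3. At 37929001 to 37930000 there were 12 H3R2me2s reads and 4 of the joint mark, with 14 of H3K4me3, and this was the only 1 of the 5 highest uncalled H3R2me2s bins outside an enriched region. For the joint mark the highest uncalled bin, at 37969001 to 37970000 in region 11, had 15 reads. At 37911001 to 37912000 there were 24 H3K4me3 reads and 11 of the joint mark, but 3 of H3R2me2s, and the bin lay 10 kb from the nearest enriched one. At 37678001 to 37679000 there were 22 H3K4me3 reads with 5 of H3R2me2s and 6 of the joint mark.

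Across the 797 bins with a read, the libraries were closely related by Pearson's r, on which the highest bins weigh most, and weakly by rank. No correlation was computed within the strong bins alone. Pearson's r of H3R2me2s with H3K4me3 was 0.909 and Spearman's rho 0.389, and for the joint mark with H3K4me3 they were 0.944 and 0.379. Over the 682 bins more than 5 kb from an enriched bin, r was 0.268 and 0.356, with rho 0.290 and 0.274. Bins are not replicates, and the shallow counts of 2 to 3 reads per bin limit any correlation there. In those bins the variance of read counts over their mean was 1.72 for H3R2me2s, 1.57 for the joint mark and 3.26 for H3K4me3, beside 1.94, 1.66 and 2.13 in background bins of the genome. For H3K4me3 it was 2.14 in the first 6 segments and 3.06 in the last 4, so the value over the whole locus pools stretches of unlike level, and the first 6 segments were close to the genome. Reads were balanced between strands, with 49.1%, 51.4% and 50.4% on the plus strand, and 6.42%, 2.56% and 5.20% of the reads of the locus repeated a position and strand.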

How the data were processed

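ChIP-seq reads of 3 libraries were analysed. Per the labels' protocols, chromatin came from sonicated nuclei, and PCR-amplified, gel-sized libraries were run on an Illumina Genome Analyzer. The submitters' processing notes name build mm9. The aligner, and how it treated repeated sequence, is not given in the sources used here. Each line deposited by the authors places a single read of 39 bases, and reads per bin are therefore raw counts, not scaled.

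Reads were moved 75 bp in the 3-prime direction and counted in 1 kb bins (Python 3.11.15, numpy 2.4.6, scipy 1.17.1). The genome mean was taken over 2285014 bins with a read in any library. A bin was enriched at 4 times the mean or more, with a Poisson upper tail under 1e-06. Background came from 2053993 bins over 5 kb from any enriched bin. Tiled windows had reads in at least 50% of their bins and at least 20% of bins over 5 kb from an enriched bin. Calling and levels were tested on simulated data with raised bins placed at random in an even Poisson background. The uneven counts, empty bins and clustered enriched bins of the real data were not simulated. The named regions are all regions enriched in any library and the 5 uncalled bins with most reads per library. The locus and these rules were chosen with earlier results of these data known, and the split after segment 6, the distance classes, the dip windows and the stretches between regions after seeing the data. Alternatives were other read shifts, repeat reads, depth, limits, bin starts, background and empty bins. No sequence of this locus is printed.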

Additional observations from a re-analysis of the deposited data

How the results depend on the processing

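No paired analysis was possible because there was a single library per antibody, which also allowed none to be omitted. The levels of the segments, the ratios there, the distances of 1 and 20 kb and the region levels were added after seeing the data. Of 207 recomputed values for the locus, 165 stayed within their interval (within 1.5 times for counts), 39 moved and 3 crossed background. These were the mean H3R2me2s level (0.9496) with background over 20 kb or only bins with a read, and H3K4me3 in the last 4 segments (1.64) beyond 20 kb. The order of values below is H3R2me2s, joint mark, H3K4me3. With background taken over 20 kb from enriched bins, the mean level was 1.05, 1.45 and 2.12, the level outside enriched bins 0.772, 0.849 and 1.11, that of the first 6 segments 0.647, 0.731 and 0.774, that of the last 4 segments 1.04, 1.10 and 1.83, and H3K4me3 in segment 9 2.73. With only bins that held a read, these were 1.10, 1.53 and 2.20, then 0.820, 0.909 and 1.17, then 0.691, 0.788 and 0.824, and then 1.09, 1.16 and 1.905, because fewer bins divide the same reads. Over bins beyond 1 kb from an enriched bin the last 4 segments had 1.07, 1.13 and 1.89. Over bins beyond 20 kb they had 0.647, 0.653 and 0.766, with log2 ratios to H3K4me3 of -0.24 for H3R2me2s and -0.23 for the joint mark in place of -0.81 and -0.71. The 6 such bins of segment 9 still had H3K4me3 at 2.07. H3K4me3 alone moved in the rest. Its mean level was 1.84 with repeat reads counted once, 1.85 at equal depth and 1.77 with the limit at 8 times the mean. Outside enriched bins it was 0.957 with reads not moved and 0.952 with repeat reads counted once, and in the last 4 segments 1.54 and 1.55. With the limit at 8 times the mean the first 6 segments had 0.647, and 13 bins were enriched in place of 21, since the limit went to 49 reads. Of 156 recomputed levels of regions and stretches, 153 stayed within their interval. The cause of moves with no reason given was not tested. Weak sites lie below the limits at this depth, where 3 reads in 1 bin are already a level of 1.27, 1.61 and 1.01.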
